A study of Mus musculus with 20 samples.

Results

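Retinoic acid synthesis, binding and receptors were followed here through 8 genes of the mouse: Aldh1a3, Crabp1, Crabp2, Rara, Rarb, Rxra, Rxrg and Cyp26b1. They were chosen by name for their roles, out of 22350 protein-coding genes on chromosomes 1 to 19 and X. For each gene the window was its body with 50 kb on each side on build mm9 (NCBIM37), and the measure was the length covered by regions that the authors called as enriched in chromatin immunoprecipitation and sequencing (ChIP-seq). The medial ganglionic eminence (MGE), the progenitor zone of the ventral forebrain that makes most cortical interneurons, was taken from C57BL/6 embryos at embryonic day 13.5, either Nkx2-1cKO (conditional Nkx2-1 knockout, called mutant below) or wild type. The marks were H3K27ac, found at promoters and enhancers in use, H3K4me1, typical of enhancers, H3K4me3, typical of promoters, and H3K27me3, laid down by Polycomb at repressed genes, each with 1 list per genotype. The transcription factors NKX2-1 and LHX6 were profiled in wild-type basal ganglia of CD-1 embryos of the same age, again with 1 list each, so peaks and marks come from different strains and dissections. The labels name neither the Cre driver nor the deleted part of Nkx2-1. Because each group is 1 list, no test between genotypes was possible, and each difference describes these libraries.

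Retinoic acid is made from retinaldehyde by aldehyde dehydrogenases, is carried inside the cell by small binding proteins, and acts through heterodimers of retinoic acid receptors (RAR) with retinoid X receptors (RXR) on paired hexamers in DNA. Enzymes of the CYP26 family degrade it, which limits where it acts. In the ventral forebrain Aldh1a3 is known from the lateral ganglionic eminence next to the MGE, and Rarb and Rxrg are known from the striatal neurons that arise there.

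The sequence best tied to this pathway was the promoter at the downstream transcription start site (TSS) of Rarb. This promoter carried H3K27ac, H3K4me1 and H3K4me3 in both genotypes. H3K27me3 lay over the TSS itself in the wild type alone. Within 2.5 kb of this TSS, however, H3K27me3 covered 3.85 kb in the mutant and 4.50 kb in the wild type. The 250 bases before the TSS, chr14:17407987-17408236 on NCBIM37, minus strand, are shown 5′ to 3′, with capitals on a pair of such hexamers 5 bases apart.

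Rarb promoter: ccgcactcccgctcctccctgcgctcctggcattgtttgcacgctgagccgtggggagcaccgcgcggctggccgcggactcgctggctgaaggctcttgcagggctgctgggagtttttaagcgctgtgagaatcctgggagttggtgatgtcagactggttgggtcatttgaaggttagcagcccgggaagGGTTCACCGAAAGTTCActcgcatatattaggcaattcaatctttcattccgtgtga

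The pair, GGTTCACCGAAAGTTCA, lay from -57 to -41 bases from the annotated TSS. It was found by a search on both strands for 2 hexamers in the same direction with 1, 2 or 5 bases between them, from 250 bases before to 50 bases after each TSS. The hexamers allowed were AGGTCA as the usual form, with AGTTCA as a second form, then GGTTCA as another form and then GGGTCA as the last. Of the 30 annotated TSSs of the 8 genes, 1 held such a pair, the one shown. This promoter is a known target of retinoic acid, and the forms searched took in both of its hexamers and their spacing. The hit therefore only describes the sequence and lends no support. Over 70018 TSSs of protein-coding genes, 0.0743% held a pair with 5 bases between and 0.414% held any of the pairs.

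Further sequences bear on the results: the summits of the longest H3K27ac regions of 1 genotype alone at Rarb and Rxra, and the 2 factor summits in the windows that hold a LIM homeodomain core (TAATTA or TAATGA, on either strand, in capitals). Each is 200 bases, plus strand of NCBIM37. They lie at chr14:17272369-17272568 (intron of Rarb), chr2:27500112-27500311 (between genes, upstream of Rxra), chr1:169536883-169537082 (intron of Rxrg) and chr3:87778265-87778464 (intron of Nes, in the Crabp2 window).

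Rarb, H3K27ac of the mutant alone: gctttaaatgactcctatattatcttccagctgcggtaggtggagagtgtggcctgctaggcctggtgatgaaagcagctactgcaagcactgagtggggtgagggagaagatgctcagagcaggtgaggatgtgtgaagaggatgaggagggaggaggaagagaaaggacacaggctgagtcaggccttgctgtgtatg
Rxra, H3K27ac of the wild type alone: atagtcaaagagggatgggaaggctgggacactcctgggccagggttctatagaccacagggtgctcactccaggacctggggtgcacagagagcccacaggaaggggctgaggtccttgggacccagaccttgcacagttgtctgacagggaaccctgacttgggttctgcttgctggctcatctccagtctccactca
Rxrg, LHX6 summit: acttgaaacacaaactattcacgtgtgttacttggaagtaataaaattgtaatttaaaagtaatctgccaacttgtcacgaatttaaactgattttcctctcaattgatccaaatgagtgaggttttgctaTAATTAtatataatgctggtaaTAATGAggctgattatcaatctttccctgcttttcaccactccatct
Crabp2 window, NKX2-1 summit: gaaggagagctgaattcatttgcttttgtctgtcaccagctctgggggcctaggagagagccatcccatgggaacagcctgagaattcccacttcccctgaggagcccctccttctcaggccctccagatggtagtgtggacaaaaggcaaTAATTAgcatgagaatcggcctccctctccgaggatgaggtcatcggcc

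Across the series the mark libraries held 26.8 to 69.0 M ChIP tags after removal of duplicates. The deposited lists were longer in the mutant than in the wild type for each mark, by 1.12 times for H3K27ac, 1.1 times for H3K4me1, 1.22 times for H3K4me3 and 1.32 times for H3K27me3 in covered bases. The H3K4me3 libraries lost 34.0% of tags as duplicates in the mutant and 28.3% in the wild type, against at most 6.96% in the other mark libraries, and the mutant one had a smaller input (39.0 M tags, against 63.2 M for the wild type). The part of duplicates and input in the results was not tested. Lists cut to the same covered length, by leaving out the weakest regions of the longer one, are quoted below for the 8 genes where they change a call or bear on it. The mutant list was the longer for each mark, so the cut could end higher calls and add lower ones, not the reverse. Within the body of Nkx2-1, each of the 4 marks covered less in the mutant than in the wild type, for example 2.78 kb in the mutant and 4.89 kb in the wild type for H3K27ac and 3.12 kb in the mutant and 4.97 kb in the wild type for H3K4me3. Over the whole Nkx2-1 window H3K27ac covered 28.5 kb in the mutant and 28.3 kb in the wild type. Of 10 ventral telencephalic marker genes, among them Nkx2-1 itself, Lhx6 and Lhx8, all had H3K27ac within 2.5 kb of a TSS in both genotypes. Their H3K27ac, that of the knocked-out gene included, came to 46.3 kb in all in the mutant and 61.2 kb in the wild type. Of 6 pallial markers, 1 had it in each genotype, while Emx1, Neurod6, Tbr1, Eomes and Neurog2 had none. Markers of other cells had it at 2 of 5 genes in the mutant and 1 of 5 in the wild type for endothelium and mural cells (Cldn5, Pecam1 and Cspg4 had none in either), at 1 of 4 in the mutant and 2 of 4 in the wild type for microglia (Cx3cr1 and Csf1r had none), and at 2 of 5 in both genotypes for meninges (Foxc1, Col1a1 and Aldh1a2 had none). The summed H3K27ac near their TSSs was 6.31 kb in the mutant and 4.65 kb in the wild type for pallium, 2.81 kb in the mutant and 2.54 kb in the wild type for endothelium and mural cells, 0.677 kb in the mutant and 0.254 kb in the wild type for microglia, and 9.60 kb in the mutant and 7.16 kb in the wild type for meninges. The part of other cells in the results was not tested. The tissue is a mixture of cells, so fewer cells carrying a mark and less of it per cell cannot be told apart.

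Of the 8 genes, Rarb was the only one called in all 4 marks, each time higher in the mutant. A window was called higher or lower where its covered length was at least 1.5 times as long in 1 genotype, with at least 2 kb in the longer one. For H3K27ac, 7 genes reached 2 kb, and 3 were called higher in the mutant (Rarb, Crabp1 and Aldh1a3), where 8.61% of 15198 genes were. For the same mark 1 gene, Rxra, was called lower in the mutant, where 2.57% of genes were. For H3K4me1, 1 of 8 genes was called higher (Rarb; 4.61% of genes) and none lower (1.61% of genes). For H3K4me3, 2 of 8 were called higher (Rarb and Aldh1a3; 6.24% of genes) and none lower (0.184% of genes). For H3K27me3, 1 of 7 was called higher (Rarb; 23.2% of genes) and none lower (1.33% of genes), and 1 of 7 is near the share of all genes. The median ratio of covered length, mutant over wild type, was 1.15 for the pathway genes and 1.06 over all genes for H3K27ac, and 0.979 for the pathway genes and 1.00 over all genes for H3K4me1. It was 1.24 for the pathway genes and 1.12 over all genes for H3K4me3, and 1.08 for the pathway genes and 1.19 over all genes for H3K27me3.

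**Figure D1:**
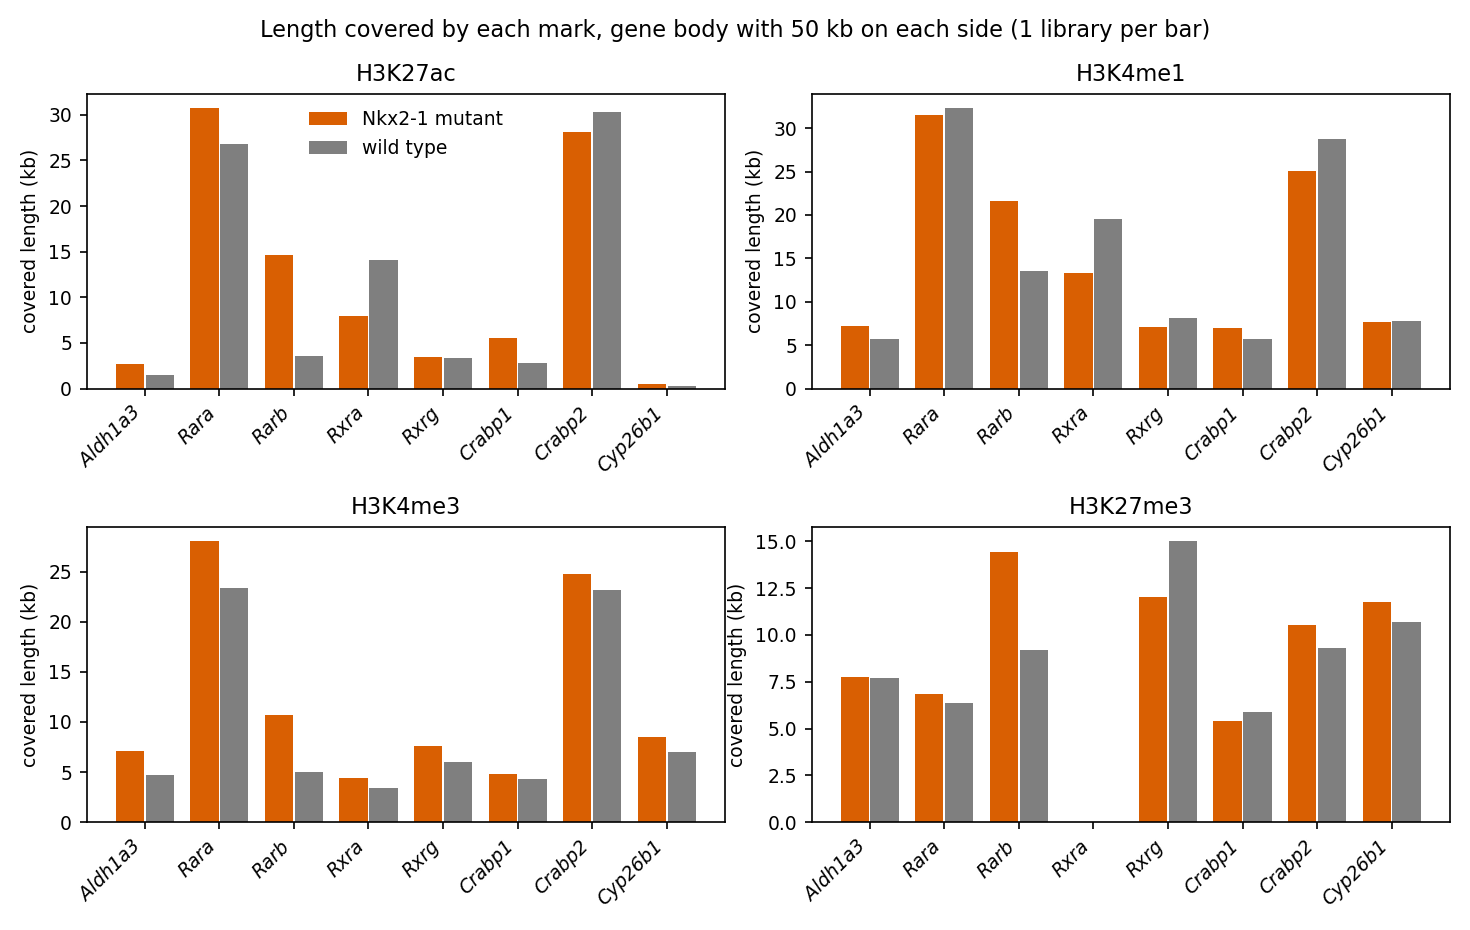
Length covered by each mark (kb, y axis) in the window of each of the 8 genes, with the mutant in orange and the wild type in grey, 1 list per bar and no error. The longest differences in H3K27ac are at Rarb (14.6 kb in the mutant and 3.57 kb in the wild type) and, in the other direction, at Rxra (7.99 kb in the mutant and 14.0 kb in the wild type).

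**Figure D2:**
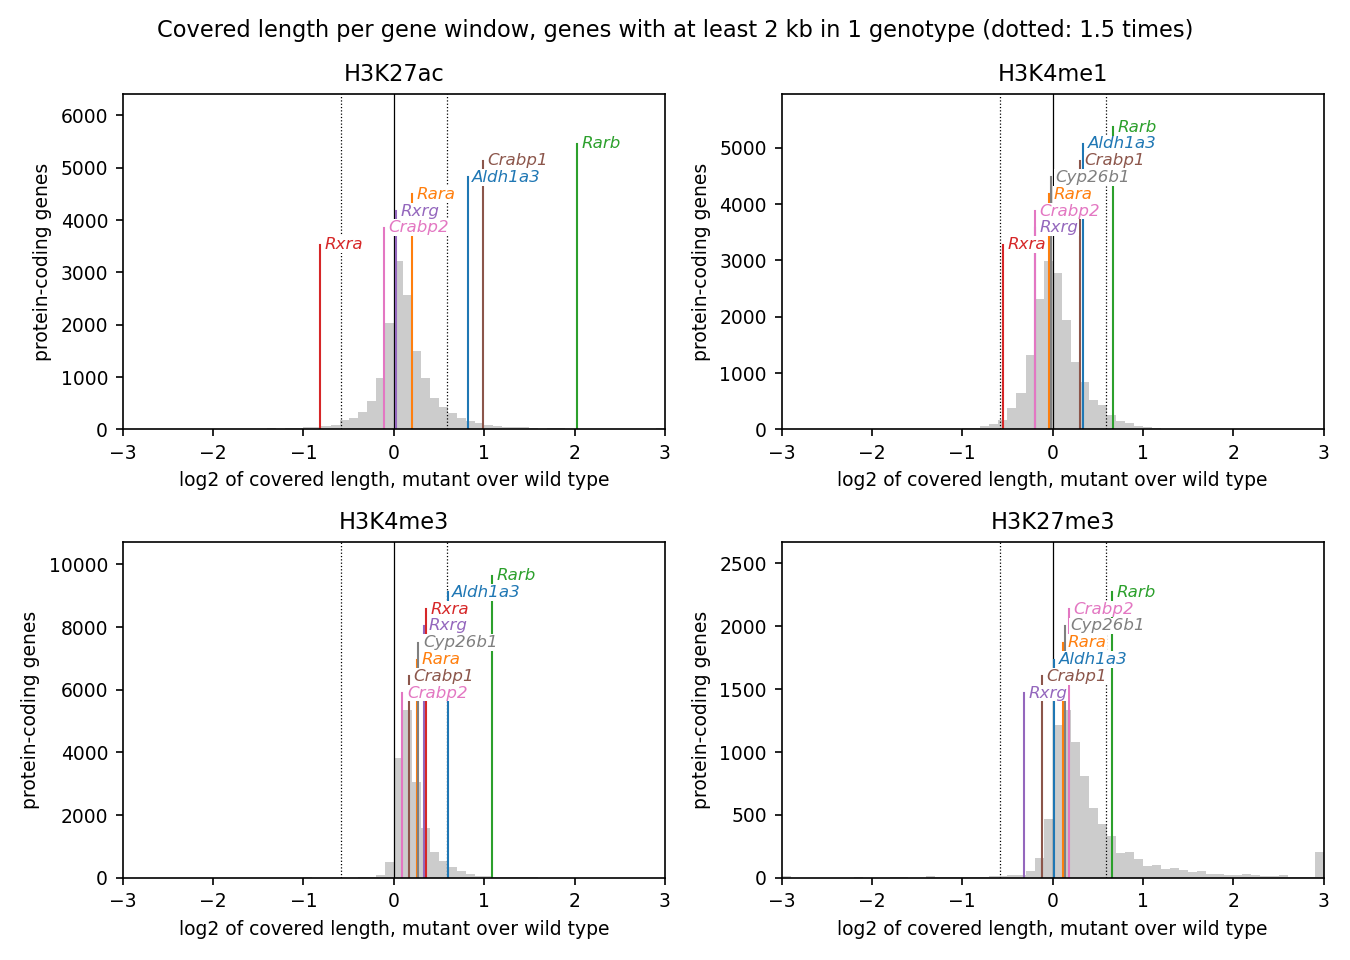
Number of protein-coding genes (y axis) by log2 ratio of covered length, mutant over wild type (x axis; the outer bins hold all values beyond them), with those of the 8 genes that reached 2 kb as coloured lines and dotted lines at 1.5 times. Rarb lies right of the dotted line in each of the 4 marks, and Rxra left of it for H3K27ac.

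Single regions of 1 genotype, those that no region of the other genotype overlapped by a base, were counted in the 8 windows and over all chromosomes. They made up 23 of 87 H3K27ac regions of the mutant (26.4%, exact 95% interval 17.6 to 37.0; 29.6% over all chromosomes) and 15 of 85 of the wild type (17.6%, 10.2 to 27.4; 19.4% over all). For H3K4me1 they made up 22 of 127 in the mutant (17.3%; 23.8% over all) and 21 of 126 in the wild type (16.7%; 15.2% over all). H3K4me3 gave 19 of 59 in the mutant (32.2%; 28.1% over all) and 1 of 50 in the wild type (2.0%; 3.65% over all). H3K27me3 gave 17 of 41 in the mutant (41.5%; 46.6% over all) and 11 of 39 in the wild type (28.2%, 15.0 to 44.9; 15.7% over all). All these intervals hold the share over all chromosomes, and they cover counting error only. Of the 23 mutant H3K27ac regions 11 were at Rarb, whose window of 488 kb is the longest of the 8, and of the 15 wild-type ones 9 were at Rxra, whose window of 187 kb is the next longest.

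Aldh1a3 (chr7:73535778-73572403, minus strand), which makes retinoic acid from retinaldehyde, had a promoter with both H3K4me3 and H3K27me3 and no H3K27ac. The H3K4me3 region over its first TSS was 3.10 kb long in the mutant and 1.17 kb in the wild type, and in the mutant it also took in 2 further annotated TSSs inside the gene. H3K27me3 over the same TSS was 5.06 kb long in the mutant and 4.94 kb in the wild type, stronger in fold enrichment than 96.7% of the mutant list and 96.9% of the wild-type list. In the whole window H3K4me3 covered 7.13 kb in the mutant and 4.71 kb in the wild type (1.51 times), and H3K27ac 2.67 kb in the mutant and 1.51 kb in the wild type (1.76 times). The H3K27ac was all in the flanks and in the neighbour Lrrk1: the 2 regions of the mutant alone had a −log10 p of 8.09, and both overlapped H3K4me1 of the wild type. The longer one, 0.830 kb, lay 31.7 kb upstream of the first TSS. With the lists of the genotypes cut to the same covered length, neither call was left, and H3K27ac turned round to 0.997 kb in the mutant and 1.51 kb in the wild type. With only regions of −log10 p of at least 10, again neither call was left (H3K27ac 1.32 kb in the mutant and 0.98 kb in the wild type, H3K4me3 6.76 kb in the mutant and 4.71 kb in the wild type). The H3K27ac call also ended with a flank of 10 kb (0.52 kb in the mutant and 0 kb in the wild type) and without the bases around TSSs of other genes (2.15 kb in the mutant and 1.51 kb in the wild type). H3K4me1 covered 7.23 kb in the mutant and 5.72 kb in the wild type, which was not called.

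Crabp1 (chr9:54612555-54620917, plus strand) encodes a cytoplasmic retinoic acid binding protein. Its single TSS lay under H3K4me3 (2.35 kb long in the mutant, 2.13 kb in the wild type) and under one of the stronger H3K27me3 regions of each list (5.43 kb in the mutant, above 97.7% of the mutant list in fold enrichment, and 4.74 kb in the wild type, above 94.9% of the wild-type list). No H3K27ac lay within 2.5 kb of it in either genotype. In the window H3K27ac covered 5.54 kb in the mutant and 2.80 kb in the wild type (1.98 times), a higher ratio than at 97.0% of genes, and this call held at the same covered length (4.30 kb in the mutant, 2.80 kb in the wild type). Of its 8 mutant regions 5 had no counterpart in the wild type. One lay in an intron of Crabp1, 5.25 kb past the TSS, where H3K27me3 was called in the wild type alone (0.384 kb) and H3K4me3 in the mutant alone (0.514 kb). The strongest of the 5 was 0.960 kb long, 14.2 kb past the TSS and between genes, with a −log10 p of 30.4 and a fold enrichment above 70.5% of the mutant list. None of the 5 overlapped H3K4me1 of the wild type.

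Crabp2 (chr3:87752588-87757298, plus strand), the binding protein that hands retinoic acid to RAR, lies among 6 other genes, including the progenitor gene Nes and the proteoglycan gene Bcan, and its window was densely marked. None of the marks was called. H3K27ac covered 28.1 kb in the mutant and 30.3 kb in the wild type, H3K4me1 covered 25.1 kb in the mutant and 28.8 kb in the wild type, and H3K4me3 covered 24.8 kb in the mutant and 23.2 kb in the wild type. Within 2.5 kb of its 2 TSSs, H3K27ac covered 4.82 kb in the mutant and 5.94 kb in the wild type. H3K27me3 covered 1.20 kb there in the mutant and 0.253 kb in the wild type. The mutant had 2 regions, one of 0.765 kb over the first TSS and one of 0.436 kb in an intron of Crabp2, the second without counterpart. The wild type had 1, of 0.253 kb, inside the gene and not over the TSS. Most of the H3K27me3 of the window was 1 region at Bcan, 9.67 kb long in the mutant and 9.54 kb in the wild type, which reached past the window.

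Among the receptors, Rara (chr11:98789132-98836256, plus strand), which encodes RARα, was called in no mark. H3K27ac covered 30.8 kb in the mutant and 26.8 kb in the wild type (1.15 times), and H3K4me1 covered 31.5 kb in the mutant and 32.4 kb in the wild type. H3K4me3 covered 28.0 kb in the mutant and 23.4 kb in the wild type, and H3K27me3 6.86 kb in the mutant and 6.34 kb in the wild type. Within 2.5 kb of its 8 TSSs, H3K27ac covered 72.1% of the bases in the mutant and 65.6% in the wild type, the highest share of the 8 genes in the mutant. Of its 19 H3K27ac regions in the mutant 3 had no counterpart, with −log10 p of at most 8.70.

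Rarb (chr14:17263356-17651381, minus strand), which encodes RARβ and whose promoter is a known target of retinoic acid, covers 388 kb and has 2 annotated TSSs 243 kb apart. The upstream one, at 17651381, had no mark over it in either genotype. In the window H3K27ac covered 14.6 kb in the mutant and 3.57 kb in the wild type, 4.09 times, a higher ratio than at 99.6% of genes. H3K4me1 covered 21.6 kb in the mutant and 13.5 kb in the wild type (1.59 times, above 96.8% of genes), and H3K4me3 10.7 kb in the mutant and 5.02 kb in the wild type (2.12 times, above 99.0%). H3K27me3 was also longer, 14.5 kb in the mutant and 9.17 kb in the wild type (1.58 times), but above only 79.9% of genes. The H3K27ac call was kept at a ratio of 2, with flanks of 10 or 100 kb, and at the same covered length (13.3 kb in the mutant and 3.57 kb in the wild type). At the same covered length the other 3 marks of Rarb were no longer called: H3K4me1 covered 19.7 kb in the mutant and 13.5 kb in the wild type, H3K4me3 5.91 kb in the mutant and 5.02 kb in the wild type, and H3K27me3 10.5 kb in the mutant and 9.17 kb in the wild type.

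At the downstream TSS of Rarb, at 17407986, the H3K4me3 region was 5.19 kb long in the mutant and 2.38 kb in the wild type. The wild type had 2 H3K4me3 regions near this TSS, 4.15 kb in all. Within 2.5 kb of it H3K4me3 covered 3.29 kb in the mutant and 2.99 kb in the wild type. H3K27ac over this TSS was 2.21 kb long in the mutant, above 82.3% of the mutant list in fold enrichment. In the wild type it was 1.20 kb long, above 60.8% of the wild-type list. H3K27me3 flanked the TSS in the mutant. One region of 5.39 kb ended inside the gene just short of the TSS, and one of 1.56 kb lay upstream. In the wild type a region of 5.08 kb ran over the TSS, and one of 1.38 kb lay upstream. The hexamer pair printed above lies under the H3K27ac, H3K4me1 and H3K4me3 regions of both genotypes, and under the H3K27me3 region of 5.08 kb of the wild type.

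At Rarb 11 H3K27ac regions were called in the mutant alone, 8.35 kb in all, and none in the wild type alone. All lay in introns, 6 of them between 2.54 and 135 kb past the downstream TSS and 5 between 59.7 and 105 kb past the upstream TSS. Their −log10 p went from 6.37 to 30.4. The longest, 1.63 kb with a fold enrichment above 70.5% of the mutant list, lay 135 kb past the downstream TSS at chr14:17271710-17273341, and it is the one whose summit is printed above. Of the 11, 9 overlapped H3K4me1 of the wild type. Of all 23 mutant H3K27ac regions without counterpart in the 8 windows, 15 did, set against 47.9% over all chromosomes. Shared sites were called over longer stretches in the mutant too, with 8 regions of 7.12 kb in all in the mutant and 8 of 4.53 kb in the wild type, 1 of each reaching past the window. Rarb also had 8 H3K4me3 regions of the mutant alone, the longest 1.32 kb and 57.2 kb past the downstream TSS, where H3K27ac was called in both genotypes. No NKX2-1 or LHX6 peak lay in the window.

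**Figure D3:**
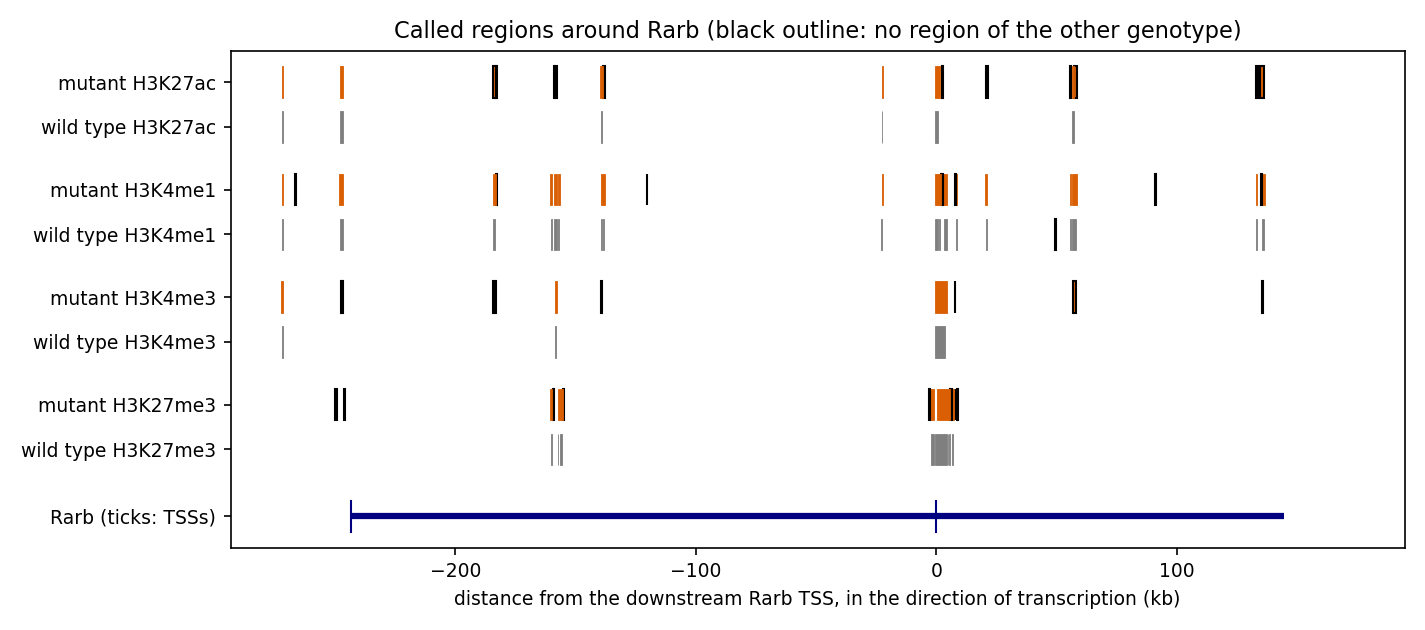
Called regions of the 4 marks in the Rarb window, with distance from the downstream TSS in kb along transcription on the x axis and 1 row per list, mutant (orange) above wild type (grey). Black outlines mark regions without a counterpart in the other genotype, and the 11 of H3K27ac in the mutant are spread along the gene on both sides of the downstream TSS.

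Rxra (chr2:27531960-27618477, plus strand) encodes RXRα, a partner of RAR and of other nuclear receptors, and was the one gene of the 8 called lower. H3K27ac covered 7.99 kb in the mutant and 14.0 kb in the wild type (0.569 times), a lower ratio than at all but 1.35% of genes. H3K4me1 covered 13.3 kb in the mutant and 19.5 kb in the wild type (0.684 times, lower than at all but 1.98% of genes), just short of the limit. H3K4me3 went the other way, 4.37 kb in the mutant and 3.42 kb in the wild type, and no H3K27me3 was called in either genotype. At the same covered length H3K27ac covered 4.55 kb in the mutant and 14.0 kb in the wild type. H3K4me1 was then called too, with 11.9 kb in the mutant and 19.5 kb in the wild type. H3K4me3 then no longer went the other way, with 3.11 kb in the mutant and 3.42 kb in the wild type. As the cut shortens only the mutant lists, it could not end a lower call and is no check on this one. With a flank of 10 kb the H3K27ac call ended, at 6.89 kb in the mutant and 10.1 kb in the wild type. With only regions of −log10 p of at least 10, H3K4me3 was called higher, at 4.37 kb in the mutant and 2.69 kb in the wild type. Within 2.5 kb of the TSSs H3K27ac covered 3.23 kb in the mutant and 3.1 kb in the wild type.

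At Rxra 9 H3K27ac regions were called in the wild type alone, 4.80 kb in all, and 1 of 0.252 kb in the mutant alone. They were weak to middling in the wild-type list, with −log10 p from 7.26 to 14.4. The longest, 1.18 kb at chr2:27500009-27501190, lay 31.4 kb upstream of the first TSS, and 3 further ones lay upstream, 9.62 to 35.5 kb from it. The other 5 were in introns of Rxra, at most 82.5 kb past the first TSS. Mutant H3K4me1 overlapped 3 of the 9, and 7 of all 15 such wild-type regions in the 8 windows, set against 46.3% over all chromosomes. An H3K4me3 region of 0.860 kb over an internal TSS, 63.9 kb past the first, was called in the mutant alone, where H3K27ac and H3K4me1 were called in both genotypes. No factor peak lay in the window, and no other protein-coding gene.

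**Figure D4:**
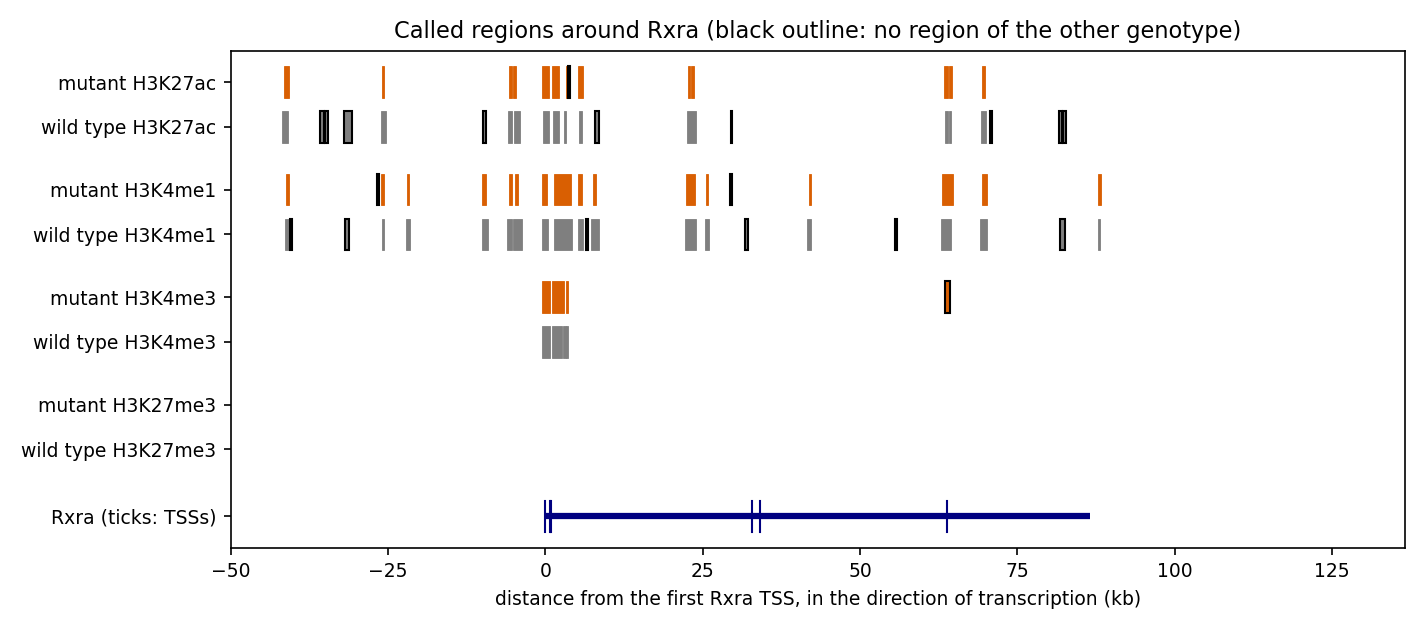
Called regions of the 4 marks in the Rxra window, drawn as distance from the first TSS in kb along transcription on the x axis, 1 row per list, mutant (orange) above wild type (grey). The 9 outlined H3K27ac regions of the wild type lie away from the first TSS, and the rows of H3K27me3 are empty.

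Rxrg (chr1:169528515-169569754, plus strand) encodes RXRγ and was called in no mark. H3K27ac covered 3.45 kb in the mutant and 3.39 kb in the wild type, and H3K4me1 7.05 kb in the mutant and 8.10 kb in the wild type. H3K27me3 covered 12 kb in the mutant and 15.0 kb in the wild type. The ratio of 0.801 was not called, although it was lower than at all but 2.1% of genes. A long region at the neighbour Lmx1a, 11.7 kb in the mutant and 11.6 kb in the wild type, reached into the window from outside. The 3 H3K27me3 regions of the mutant alone lay past the end of Rxrg, 84.0 to 85.5 kb from its first TSS. The 8 of the wild type alone lay around the start of Rxrg, between 1.44 kb upstream of the first TSS and 9.94 kb past it, each at most 0.790 kb long. Within 2.5 kb of its TSSs H3K27me3 covered 2.07 kb in the mutant and 3.27 kb in the wild type, and with a flank of 10 kb it covered 2.07 kb in the mutant and 6.19 kb in the wild type and was called lower. H3K4me3 near its TSSs covered 2.93 kb in the mutant and 2.1 kb in the wild type, and with a flank of 10 kb it covered 4.16 kb in the mutant and 2.76 kb in the wild type and was called higher. With only regions of −log10 p of at least 10, H3K27ac was called higher, at 3.45 kb in the mutant and 2.22 kb in the wild type.

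Cyp26b1 (chr6:84521938-84543740, minus strand), which degrades retinoic acid, was the gene of the 8 with least H3K27ac: 1 region of 0.472 kb in the mutant and 1 of 0.261 kb in the wild type, at different sites and under the 2 kb needed for a call. H3K27me3 ran over its downstream TSS as 1 region of 10.8 kb in the mutant, above 98.5% of the mutant list in fold enrichment, and of 10.7 kb in the wild type, above 98.8% of the wild-type list. H3K4me3 over that TSS was 1 region of 7.40 kb in the mutant and one of 2.60 kb in the wild type. In the whole window it covered 8.46 kb in the mutant and 7.0 kb in the wild type, which had further separate regions nearby.

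Promoters that hold both H3K4me3 and H3K27me3 are often called bivalent. The count here was wider: it took all TSSs of a gene together, and the 2 marks did not have to overlap. In each genotype 7 of the 8 genes had both marks at most 2.5 kb from a TSS, and Rxra was the exception. At Crabp2 in the wild type this rested on 0.253 kb of H3K27me3 that lay over no TSS. Over all genes this was so for 22.9% in the mutant and 19.8% in the wild type.

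**Figure D5:**
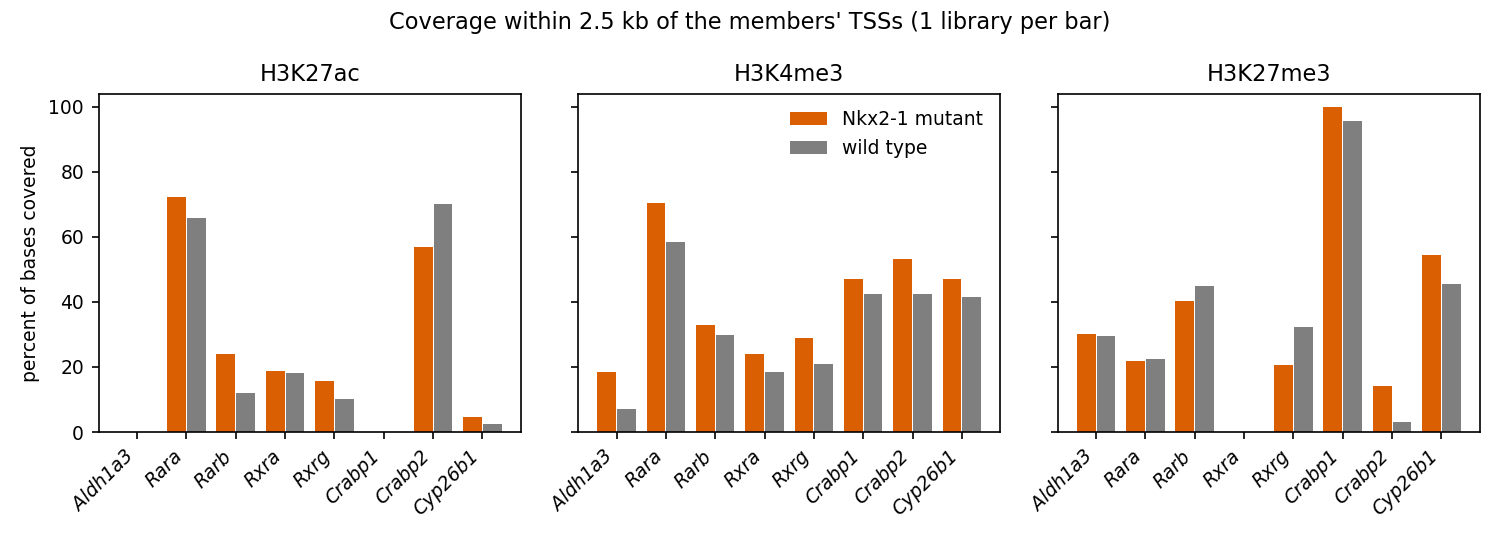
Percent of bases within 2.5 kb of the TSSs of each gene (y axis) that H3K27ac, H3K4me3 or H3K27me3 covered, with the mutant in orange and the wild type in grey, 1 list per bar. Aldh1a3 and Crabp1 have no H3K27ac bar, Rxra has no H3K27me3 bar, and H3K27me3 covers 100% of these bases at Crabp1 in the mutant and 95.7% in the wild type.

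NKX2-1 peaks lay in the windows of 3 of the 8 genes, 5 peaks in all, and 31.5% of all genes had a peak in their window. At Rara one lay in an intron 14.3 kb past the first TSS (chr11:98803217-98803664), and the other between genes near Top2a (chr11:98885542-98885853). At Rxrg the peak was 14.3 kb upstream of the TSS (chr1:169514060-169514459), and in the Crabp2 window the 2 peaks lay in an intron of Nes (chr3:87778161-87778513) and an exon of Bcan (chr3:87791610-87791872). H3K27ac and H3K4me3 of both genotypes overlapped all 5, and so did H3K4me1 save for the wild type at the Top2a peak. Their fold enrichments, 3.20 to 4.72, lay above 7.16% to 59.8% of the NKX2-1 list. One LHX6 peak, in an intron of Rxrg 8.47 kb past the first TSS (chr1:169536849-169537111), had none of the 4 marks in either genotype; 4.06% of all genes had an LHX6 peak in their window. The genes called in any mark, Rarb, Rxra, Aldh1a3 and Crabp1, had no peak of either factor in theirs. Most of all genes had none either, and the share among all called genes was not computed. The NK2 core (CACTTGA or CACTCAA, either strand) was in none of the 6 summits of 200 bases, against 21.4% of all NKX2-1 summits and 8.42% of all LHX6 summits. The LIM core was there 2 times at the LHX6 summit of Rxrg and 1 time at the NKX2-1 summit in Nes, the 2 printed above, against 41.5% of LHX6 and 25.7% of NKX2-1 summits with at least 1.

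Other genes of retinoid metabolism and response, a list of 31, were read the same way. The list was chosen by hand with earlier results of these data known, so its shares only describe it. H3K27ac was called higher at 4 of 23 (Meis1, Meis2, Nr2f2 and Drd2) and lower at none, where 8.61% of all genes were called higher. H3K4me1 was called higher at 1 of 27 (4.61% of all genes) and H3K4me3 at 5 of 28 (6.24%). H3K27me3 was called higher at 3 of 20 (23.2%) and lower at 1 (1.33%). Lists cut to the same covered length were not read for these 31 genes. Genes called in at least 2 marks were Meis2, Nr2f2 and Drd2. All were put on the list for a known response to retinoic acid, as was Meis1, so that shared trait comes from the choice. Meis2, a transcription factor of the lateral eminence and striatum, had 67.4 kb of H3K27ac in the mutant and 41.5 kb in the wild type. Its H3K4me1 covered 77.8 kb in the mutant and 50.7 kb in the wild type, and its H3K27me3 15.6 kb in the mutant and 25.1 kb in the wild type. Nr2f2, which encodes the caudal eminence factor COUP-TFII, had 34.4 kb of H3K27ac in the mutant and 20.3 kb in the wild type. Drd2, the dopamine receptor gene of striatal neurons, had 2.27 kb of H3K27ac in the mutant and 0.665 kb in the wild type. Their H3K4me3 was 1.72 times as long in the mutant at Nr2f2 and 1.51 times at Drd2.

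The genes closest in pattern were sought for Rarb and Aldh1a3, the members called in at least 2 marks, as the smallest Euclidean distance over 8 values (percent of the window covered by 4 marks in 2 genotypes). The distance compares coverage and not the ratio between genotypes, so a close gene need not share the calls. For Rarb these were Glt28d2 (distance 1.44 percentage points), Gm17402 (1.61) and 6030405A18Rik (1.63). H3K27ac covered 2.20% of the Glt28d2 window in the mutant and 0.358% in the wild type, and 2.99% of the Rarb window in the mutant and 0.732% in the wild type. For Aldh1a3 they were Gm16499 and Tril (1.46 each) and 6330527O06Rik (1.58). Gm16499 and Tril had the same covered bases in all 8 lists, so they are not separate matches. H3K27ac covered 1.95% of the Aldh1a3 window in the mutant and 1.11% in the wild type. At Gm16499 it covered 1.61% in the mutant and 1.62% in the wild type. At 6330527O06Rik it covered 1.94% in the mutant and 1.65% in the wild type. Neither of these matches reached the ratio for an H3K27ac call.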

How the data were processed

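Of 20 libraries, the 10 with a deposited peak list were used; inputs and IgG were not analysed here. The submitters' processing notes name BWA 0.6.2, MACS2 2.1.0, bcl2fastq 1.8.4, CASAVA 1.8.2 and build mm9. The authors ran MACS 2.1.0.20140616, per the file headers, on merged alignments with input as control. The p-value limit was 1e-05, local background was off, tags were lengthened to 250 bases, duplicates were reduced to 1 tag, and summits within a region were listed apart. The spread between the merged libraries cannot be read, and depth is the tag count in the headers (26.8 to 89.1 M). The deposited columns are pileup (a signal), the authors' −log10 p-value and fold enrichment (a ratio of ChIP to input); the −log10 q-value column was not used, since per the file headers q-values were not calculated. Fold and −log10 p rank regions only within a list.

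Summits of the same region were merged. Covered lengths, overlaps (at least 1 base) and exact Clopper-Pearson intervals (95%) were computed on chromosomes 1 to 19 and X in Python 3.11.15 (pandas 2.3.3, numpy 2.4.6, scipy 1.17.1), checked against bedtools 2.31.1 and tested on simulated data. Sequences were read from the NCBIM37 genome (samtools 1.23.1, pysam 0.24.0), and figures were drawn in matplotlib 3.10.9. The annotation was GENCODE vM1 on the same build, and coordinates count from 1. The genes, lists and motifs were chosen with earlier results of these data known. All 8 genes are named, with regions over their TSSs, regions holding factor peaks, the longest region of 1 genotype alone per gene and mark (a selection is printed), pathway genes called in at least 2 marks, and the 3 genes closest in pattern to a gene called in at least 2 marks (leaving out genes whose windows overlap that of the member, but not matches that overlap each other). Alternatives were −log10 p of at least 10, flanks of 10 and 100 kb, lists cut to the same covered length (weakest regions of the longer list left out), a ratio of 2 and an overlap of 50%. After seeing the data, 2 were added: leaving out 2.5 kb around TSSs of other genes, and −log10 p of at least 10 in 1 genotype with no deposited region in the other.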

Additional observations from a re-analysis of the deposited data

How the results depend on the processing

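Cutting the lists of a mark to the same covered length moved most: members called higher fell to 0 for H3K4me1, H3K4me3 and H3K27me3, 1 was called lower for H3K4me1 (Rxra) and 1 for H3K27me3 (Rxrg), and H3K27ac at Aldh1a3 turned round (mutant minus wild type -0.518 kb). The cut shortened only the mutant lists, so it could end higher calls and add lower ones but not the reverse. Shares of regions of 1 genotype alone were then 0% (mutant) and 14% (wild type) for H3K4me3, 9.52% for mutant H3K27me3, 30.6% for wild-type H3K27ac and 24.6% for wild-type H3K4me1. Leaving out weak regions of the mutant list can by construction only raise the wild-type share or leave it. The mutant share could have moved either way. At a flank of 10 kb, 0 genes were called lower for H3K27ac, 2 higher for H3K4me1 (Rarb and Crabp1) and 1 lower for H3K27me3 (Rxrg), and the wild-type H3K4me3 share was 0%. Rxrg was then also called higher for H3K4me3, and Aldh1a3 was no longer called for H3K27ac. At a ratio of 2, Rarb alone was called higher for H3K27ac (1) and H3K4me3 (1), with 0 lower for H3K27ac and 0 higher for H3K4me1 and H3K27me3. With −log10 p of at least 10 in both genotypes the counts of calls were equal, but Aldh1a3 gave way to Rxrg for H3K27ac and to Rxra for H3K4me3, and the wild-type H3K27me3 share was 11.1%. With that limit in 1 genotype and no deposited region in the other, shares were 8.77% for wild-type H3K27ac, 6.74% for mutant and 6.98% for wild-type H3K4me1, and 5.56% for wild-type H3K27me3. Beyond that the cause was not tested. A flank of 100 kb, an overlap of 50% and leaving out TSSs of other genes moved no count or share of this kind by over 1.5 times or out of its interval, though the last ended the H3K27ac call of Aldh1a3. Rarb was called higher for H3K27ac under each alternative for which calls were made, which leaves out the overlap of 50% and the limit in 1 genotype. No paired analysis was possible because each antibody and genotype has 1 list. Weak regions sit near the calling limit, so that a region of 1 genotype alone may be a region just under the limit in the other.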

Other observations

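Pairs of retinoic acid receptor hexamers were also searched in 300 bases around each H3K27ac summit, in the same spacings. In the 8 windows 1 of 87 mutant regions and 1 of 85 wild-type regions held one, with 2 bases between the hexamers. These 2 regions overlapped, and their middles lay 1.25 kb (mutant) and 1.26 kb (wild type) upstream of the first Crabp2 TSS. Over all chromosomes 0.407% of mutant and 0.444% of wild-type H3K27ac regions held one.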
